A study of Homo sapiens with 4 samples.

Results

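The genes described here are 39 genes of glycerophospholipid synthesis and remodelling, picked by name for their enzymatic roles. All 39 were found by symbol among the 55862 genes that both annotations used here shared. They cover the making and oxidation of glycerol 3-phosphate, the CDP-diacylglycerol and cardiolipin route, phosphatidylinositol synthesis, the Kennedy pathway, the exchange of head groups between phosphatidylserine and phosphatidylethanolamine, the acyltransferases that refill lysophospholipids, and the phospholipases.

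All 4 samples came from HK2, an immortalized epithelial line derived from human proximal tubule, given FG-4592 at 50 μM for 6 h. FG-4592, also known as roxadustat, blocks the prolyl hydroxylases that mark HIF1α for breakdown. The samples were 2 HIF1α ChIP-seq replicates, each a list of peaks, and 2 RNA-seq replicates, each a table of transcript levels. Every library was of treated cells, and untreated ones were not analysed here. The values are therefore levels and positions in 1 treated line, with no fold change on treatment and no test of it.

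Membrane glycerophospholipids are built from glycerol 3-phosphate. Phosphatidic acid is either activated to CDP-diacylglycerol, the precursor of phosphatidylinositol and of the mitochondrial lipid cardiolipin, or turned into diacylglycerol, which takes up activated choline or ethanolamine in the Kennedy pathway. The fatty acids of the finished lipids are then exchanged in the Lands cycle, where phospholipases A2 remove an acyl chain and lysophospholipid acyltransferases put another back. Proximal tubule cells are rich in mitochondria, whose inner membrane holds the cardiolipin.

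The RNA-seq tables held 4442 Mb of coverage multiplied by transcript length in replicate 1 and 4202 Mb in replicate 2. Levels are given as FPKM, fragments per kilobase of transcript scaled to the mapped fragments of the library, summed over the transcripts of a gene. The ChIP-seq lists were very unequal. Replicate 1 held 1689 peaks with a median width of 325 bp, and 32.9% of their bases lay in annotated exons. Replicate 2 held 16953 peaks with a median width of 404 bp, and 84.5% of their bases lay in exons. Replicate 2 thus stood apart in number and position. From the lists alone it could not be settled whether its peaks mark DNA bound by HIF1α, which holds for each replicate 2 peak and each count over both replicates below. Every peak result is given for each replicate alone.

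The label of the cells was compared with marker genes. Of 8 proximal tubule markers with a value, 3 reached an FPKM of 1 in both libraries, and their sums were 186 and 174 FPKM. The transcription factor *PAX8* led at 121 and 114 FPKM, followed by the brush border enzyme *GGT1* at 62.3 and 58.5 FPKM. The glucose transporter *SLC5A2* stood at 2.59 and 1.70 FPKM. The defining uptake and transport genes *CUBN*, *SLC34A1*, *SLC5A1* and *AQP1*, and the brush border peptidase *ANPEP*, were all under 0.1 FPKM in each library, so these markers were close to absent. Epithelial markers were high, with 5 of 6 above the limit and *KRT19* at 184 and 177 FPKM, while E-cadherin *CDH1* stood at 0.211 and 0.379 FPKM.

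Markers of other cell types were mixed. Of 2 podocyte genes, *NPHS1* was listed at 0 in both libraries and *PODXL*, also found in other epithelia, stood at 5.36 and 5.49 FPKM. The loop gene *SLC12A1* was listed at 0 in both libraries, and the endothelial genes *CDH5* and *VWF* were under 0.1 FPKM. *CD68*, a lysosomal protein abundant in macrophages, stood at 33.6 and 31.5 FPKM, and *COL1A1* at 38.7 FPKM in each library. The other fibroblast genes were low, *PDGFRB* at 0.490 FPKM in each library and *DCN* at 0.0754 and 0.322 FPKM. The levels of *PODXL*, *CD68* and *COL1A1* hardly differed between the libraries, and their part in the levels below was not tested.

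Of the 39 genes, 35 had an FPKM of at least 1 in both libraries, or 89.7%. Among all 55862 genes the share was 23.2%, and among protein-coding genes 58.8%. The median of the 39 genes was 9.79 FPKM in replicate 1 and 11.6 FPKM in replicate 2. Over the 35 expressed genes it was 11.7 FPKM in each library, close to the 10.7 and 10.8 FPKM of the 11726 protein-coding genes that averaged 1 FPKM or more. Most of the 39 listed genes were thus expressed, at levels ordinary for these cells. In bulk RNA, fewer expressing cells and less RNA per cell cannot be told apart.

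**Figure D1:**
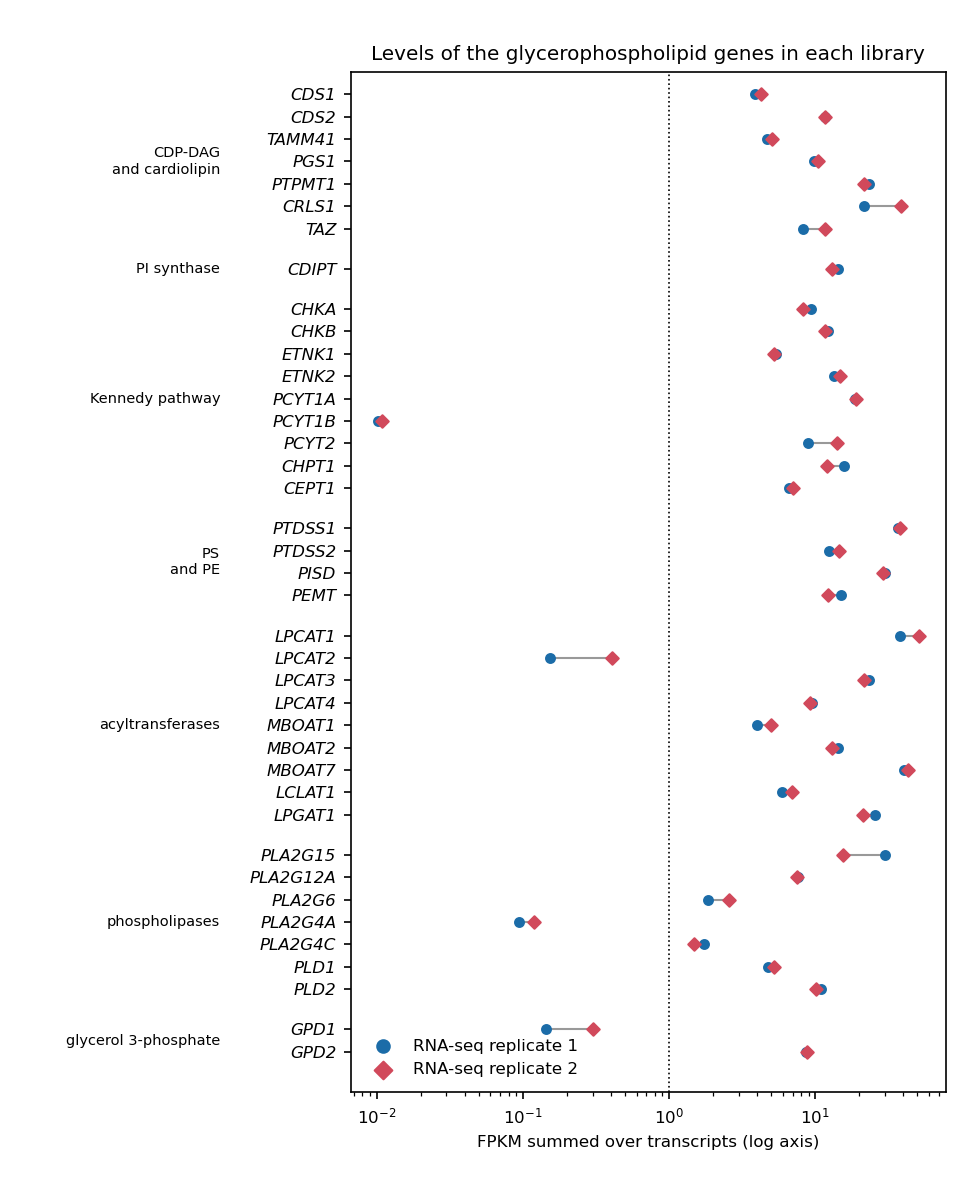
FPKM of each of the 39 genes (log axis) in RNA-seq replicate 1 (circles) and replicate 2 (diamonds), grouped by role, with a dotted line at an FPKM of 1. The 4 genes left of the line are *PCYT1B*, *LPCAT2*, *PLA2G4A* and *GPD1*, and the widest gaps among the others belong to *CRLS1* and *PLA2G15*.

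The 4 genes below the limit are given beside their relatives. *PCYT1B*, the minor isozyme of the rate-limiting enzyme that makes CDP-choline, stood at 0.0102 and 0.0109 FPKM, against 18.6 and 18.9 FPKM for *PCYT1A*. *PCYT1A* therefore made up 99.9% of the FPKM of the pair in each library. *LPCAT2*, an acyltransferase of inflammatory cells that also makes platelet-activating factor, stood at 0.155 and 0.410 FPKM. *GPD1*, the cytosolic glycerol 3-phosphate dehydrogenase, was listed at 0.145 and 0.304 FPKM, while the mitochondrial *GPD2*, which oxidizes glycerol 3-phosphate, stood at 8.65 and 8.76 FPKM. *PLA2G4A*, the calcium-dependent cytosolic phospholipase A2 that releases arachidonic acid, stood at 0.0943 and 0.119 FPKM.

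Those low values rested on very little sequence. *PCYT1B* had 0.300 kb of coverage in each library, *PLA2G4A* 1.5 and 1.79 kb, *GPD1* 1.84 and 2.17 kb, and *LPCAT2* 1.96 and 3.89 kb. By comparison, *GPD2* had 245 and 236 kb. For *LPCAT2*, 83.7% and 76.6% of the FPKM belonged to transcripts annotated as retained introns, and for *GPD1* 34.6% and 74.3%, so spliced messenger RNA of these genes was lower still. Replicate 2 had the higher FPKM for all 4, most so for *LPCAT2*, at 2.65 times by FPKM and 2.10 times by covered bases relative to the library's total. These differences were not tested.

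On the cardiolipin route all 7 genes were expressed, with summed levels of 83.1 and 103 FPKM. CDP-diacylglycerol is made by *CDS1* and *CDS2* at the endoplasmic reticulum and by *TAMM41* in mitochondria. *CDS2* stood at 11.7 and 11.6 FPKM, 3.02 and 2.72 times the level of *CDS1* at 3.87 and 4.28 FPKM. *TAMM41* stood at 4.69 and 5.09 FPKM. The mitochondrial step was thus served by one of the lower levels of the route, and these genes barely moved between libraries.

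*PGS1*, which makes phosphatidylglycerol phosphate, stood at 9.79 and 10.4 FPKM. *PTPMT1*, the phosphatase that removes its phosphate, stood at 23.3 and 21.7 FPKM. *CRLS1*, the cardiolipin synthase, stood at 21.5 and 38.4 FPKM. It was the highest gene of the route by mean level, and the one with the widest gap between libraries. *TAZ*, the tafazzin gene that gives cardiolipin its mature acyl chains, stood at 8.20 and 11.6 FPKM. It was also higher in replicate 2, by 0.46 on the log2 scale of FPKM + 1, under the limit of 1.5-fold used here.

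*CDIPT*, which joins inositol to CDP-diacylglycerol, stood at 14.3 and 13.0 FPKM. Its sum was steady, although the transcripts behind it changed, as described below for several genes.

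In the Kennedy pathway 8 of 9 genes were expressed, with summed levels of 90.1 and 91.9 FPKM. Choline is phosphorylated by *CHKA* at 9.36 and 8.25 FPKM and *CHKB* at 12.2 and 11.7 FPKM, a ratio of *CHKB* to *CHKA* of 1.3 and 1.41. Ethanolamine is phosphorylated by *ETNK1* at 5.36 and 5.25 FPKM and *ETNK2* at 13.4 and 14.8 FPKM. The order of *CHKA* and *CHKB* turned without transcripts annotated as retained introns, which left *CHKA* at 9.26 and 7.68 FPKM and *CHKB* at 4.91 and 5.04 FPKM. *ETNK2* led its pair in both libraries. *PCYT2*, which makes CDP-ethanolamine, stood at 8.94 and 14.1 FPKM. The last step is run by *CHPT1*, for choline, at 15.6 and 11.96 FPKM, and by *CEPT1*, for either head group, at 6.58 and 7.06 FPKM. *CHPT1* was the higher of the pair in each library, by 2.37 and 1.69 times. *SELENOI*, an ethanolamine phosphotransferase outside the 39 genes, also runs this step and stood at 7.87 and 9.22 FPKM, above *CEPT1* in each library.

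The 4 genes of phosphatidylserine and phosphatidylethanolamine were all expressed, with sums of 94.3 and 93.3 FPKM and a median of 21.5 FPKM, the highest of the 7 roles. *PTDSS1*, which makes phosphatidylserine from phosphatidylcholine, stood at 36.9 and 37.8 FPKM. *PTDSS2*, which uses phosphatidylethanolamine, stood at 12.5 and 14.5 FPKM, so *PTDSS1* was 2.95 and 2.61 times as high over all transcripts. The highest protein-coding transcript stood at 11.4 and 10.0 FPKM for *PTDSS1*, and at 5.19 and 7.36 FPKM for *PTDSS2*. Much of the *PTDSS1* sum, 62.2% and 67.5%, lay on a transcript annotated as a target of nonsense-mediated decay. *PISD*, the mitochondrial decarboxylase that turns phosphatidylserine into phosphatidylethanolamine, stood at 29.8 and 28.9 FPKM. *PEMT*, a methyltransferase best known from liver that makes phosphatidylcholine from phosphatidylethanolamine, stood at 15.1 and 12.2 FPKM. It was therefore expressed in this kidney line at a level above the median of the 39 genes.

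Among the 9 acyltransferases, 8 were expressed, and the sums of 162 and 171 FPKM were the largest of any role. *LPCAT1*, which acylates lysophosphatidylcholine with saturated chains, stood at 38.1 and 51.0 FPKM and had the highest mean of all 39 genes. *MBOAT7*, which puts arachidonic acid into phosphatidylinositol, followed at 40.6 and 43.0 FPKM. *LPGAT1*, named for its activity on lysophosphatidylglycerol, stood at 25.5 and 21.2 FPKM. *LPCAT1* and *MBOAT7* thus led within this role. Without transcripts annotated as retained introns they still led, at 36.5 and 50.0 FPKM for *LPCAT1* and 29.0 and 30.3 FPKM for *MBOAT7*. The margin of *MBOAT7* was then small in replicate 1, against 25.3 and 21.2 FPKM for *LPGAT1*. The only *LPCAT1* transcript annotated as protein-coding stood at 21.8 and 26.3 FPKM. Another, annotated as a target of nonsense-mediated decay, stood at 4.67 and 20.2 FPKM. The lead of *LPCAT1* therefore holds for the summed levels and need not hold for protein-coding transcripts alone.

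*LPCAT3*, which loads polyunsaturated chains onto phosphatidylcholine, stood at 23.5 and 21.5 FPKM. *LPCAT1* made up 53.5% and 62.0% of the summed FPKM of *LPCAT1* to *LPCAT4*. The remaining acyltransferases, *MBOAT2*, *LPCAT4*, *LCLAT1* and *MBOAT1*, had means from 13.7 FPKM down to 4.51 FPKM. *LCLAT1* remodels cardiolipin and phosphatidylinositol, and it stood at 5.95 and 6.96 FPKM. *MBOAT2* was the highest of these 4 at 14.4 and 13.0 FPKM.

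The 7 phospholipases had the lowest median among roles with more than 2 genes, at 4.99 FPKM, and 6 were expressed. *PLA2G15*, the lysosomal phospholipase A2, was the highest at 30.1 and 15.5 FPKM. The secreted *PLA2G12A* stood at 7.67 and 7.5 FPKM. The calcium-independent *PLA2G6* stood at 1.85 and 2.58 FPKM, and the cytosolic *PLA2G4C* at 1.74 and 1.49 FPKM. RNA of the classical cytosolic enzymes was thus low beside that of the lysosomal one. Without transcripts annotated as retained introns, *PLA2G15* stood at 14.7 and 11.9 FPKM. *PLD1* and *PLD2*, which release phosphatidic acid, stood at 4.75 and 5.24 FPKM and at 10.96 and 10.2 FPKM, a ratio of *PLD2* to *PLD1* of 2.31 and 1.95.

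Levels of the 35 expressed genes differed little between the libraries. The median absolute difference was 0.12 on the log2 scale of FPKM + 1, for these genes and for all protein-coding genes averaging 1 FPKM or more. In replicate 2, 18 genes were higher and 17 lower. Of the 35, 3 were over 1.5-fold apart, or 8.57%, against 3.3% of the 11726 protein-coding genes. With 3 genes in the count, nothing particular to the list was read from this. The 3 genes were *CRLS1*, *PLA2G15* and *PCYT2*.

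**Figure D2:**
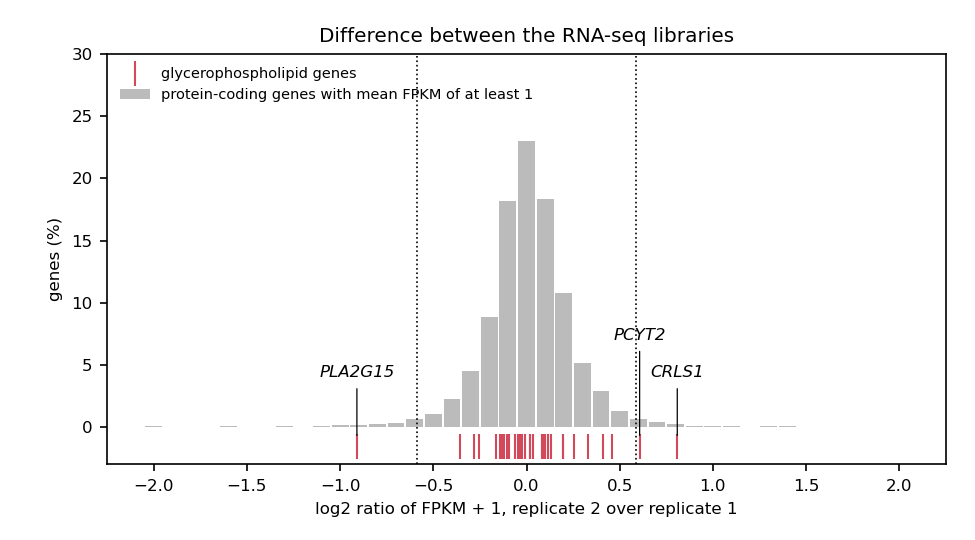
Share of protein-coding genes averaging 1 FPKM or more (grey bars, %) by the log2 ratio of FPKM + 1 in RNA-seq replicate 2 over replicate 1, with the 35 expressed glycerophospholipid genes as ticks and dotted lines at 1.5-fold either way; ratios past 2 either way are drawn in the outermost bars. *PLA2G15* at -0.91, *PCYT2* at 0.61 and *CRLS1* at 0.81 lie outside the lines.

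*CRLS1* was 1.79 times as high in replicate 2. As bases of coverage scaled to the library total, which do not depend on how fragments are shared among transcripts of unequal length, the ratio was 1.68. The transcripts behind the sum were exchanged. A transcript of 3859 nt stood at 13.5 FPKM in replicate 1 and was listed at 0 in replicate 2. A form of 3958 nt stood at 3.99 and 28.2 FPKM. Both are annotated as protein-coding. What lay behind the exchange was not tested.

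*PLA2G15* fell the other way, with a ratio of replicate 2 to replicate 1 of 0.517 in FPKM and 0.435 in scaled bases. Most of the gap lay in a single transcript of 2 exons and 3121 nt, annotated as a retained intron, at 14.6 and 3.29 FPKM. The main protein-coding transcript, of 2727 nt, stood at 7.86 and 6.09 FPKM. Retained introns made up 51.0% of the gene's FPKM in replicate 1 and 23.4% in replicate 2. The spliced enzyme messenger thus differed much less between the libraries than the gene sum.

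*PCYT2* was 1.58 times as high in replicate 2 in FPKM, but only 1.04 times in scaled bases, so its call did not hold on that scale. A short protein-coding transcript of 804 nt stood at 1.18 and 4.37 FPKM, while the longest, of 5147 nt, stood at 5.13 and 4.15 FPKM. The same amount of sequence, given to a shorter transcript, yields a higher FPKM. *LPCAT1* showed the reverse. Its ratio was 1.34 in FPKM and 1.64 in scaled bases, and a transcript of 5610 nt annotated as a target of nonsense-mediated decay stood at 4.67 and 20.2 FPKM. On scaled bases the 3 genes over 1.5-fold apart were *CRLS1*, *PLA2G15* and *LPCAT1*.

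The highest transcript was a different one in each library for 10 of the 34 expressed genes with several transcripts, or 29.4%. The share was 22.4% among 11096 protein-coding genes of the same kind. *PEMT*, whose sum was 0.809 times as high in replicate 2, was one of them. Its transcript of 1013 nt stood at 12.6 and 1.35 FPKM, and that of 1050 nt at 0.599 and 5.86 FPKM. In *CDIPT*, with a ratio of sums of 0.911, a form of 1532 nt stood at 7.02 FPKM and was then listed at 0, while a form of 1671 nt stood at 0.203 and 6.13 FPKM. These exchanges took place between replicates of 1 condition, and whether they came from the estimate or from the cells was not tested. The other 8 genes were *CEPT1*, *CRLS1*, *PCYT2*, *PGS1*, *PISD*, *PLA2G15*, *PLA2G6* and *TAZ*.

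**Figure D3:**
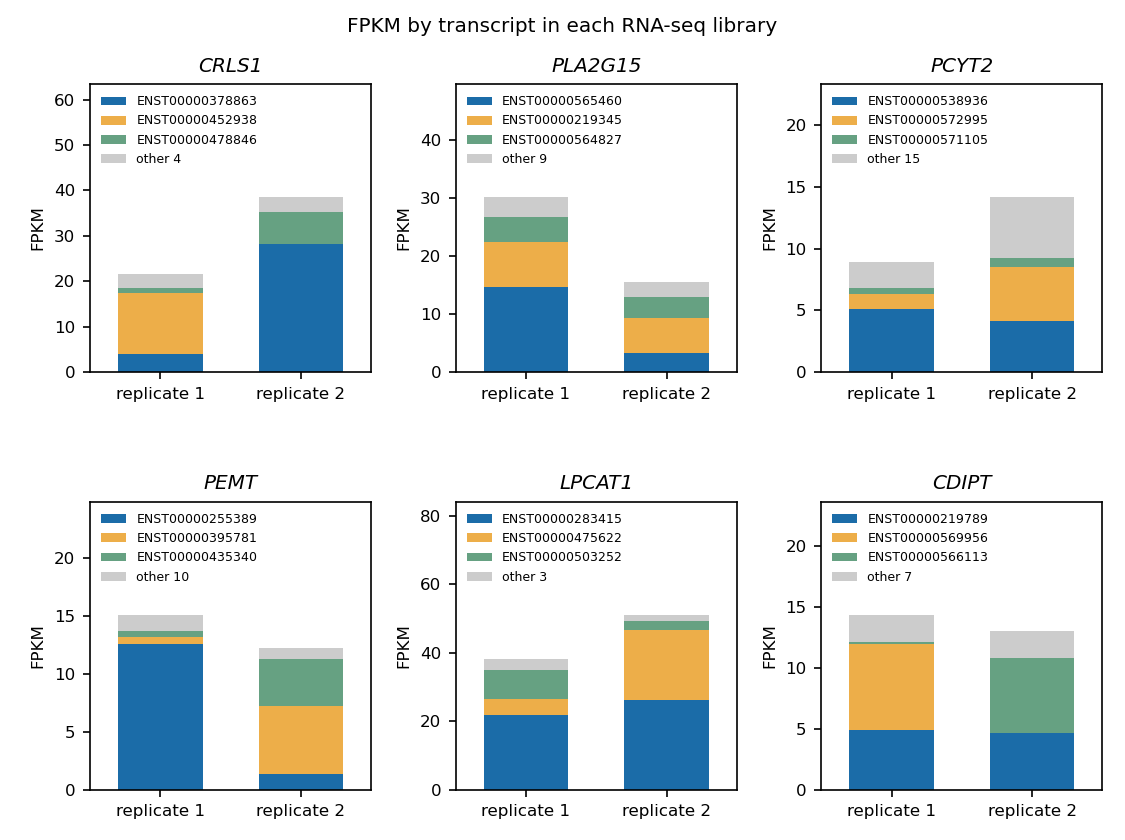
Stacked FPKM of the 3 transcripts with the highest mean and of all others (grey), in each RNA-seq library, for 6 genes. In *CRLS1* and *CDIPT* the leading form of replicate 1 was listed at 0 in replicate 2 and another led, and in *PEMT* it went from 12.6 to 1.35 FPKM while 2 other forms stood at 5.86 and 4.12 FPKM.

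Several genes carried much of their FPKM on transcripts without a full reading frame in both libraries. Such shares are not given here for all genes, so nothing particular to the list was read from them. Retained introns made up 59.8% and 56.7% of *CHKB*, 49.8% and 43.97% of *PTDSS2*, and 28.4% and 29.5% of *MBOAT7*. Among others, they made up 48.1% and 46.9% of *PLA2G4C* and 37.3% and 40.2% of *TAZ*. The highest *PTDSS1* transcript, of 2366 nt, is annotated as a target of nonsense-mediated decay and held 62.2% and 67.5% of the gene's FPKM. These shares were steady between the libraries, unlike those of *PLA2G15*. By contrast, *CDS1* and *PLA2G12A* each had over 93% of their FPKM on a single protein-coding transcript.

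Exons of 23 of the 39 genes overlapped another annotated gene on GRCh37, a count for which no share over all genes is given here. Whether fragments were counted by strand is not given in the sources used here, so in such stretches reads of both genes cannot be told apart. For *PCYT2* the neighbours were *ANAPC11* and *NPB*, of which the higher had a mean of 39.9 FPKM. For *TAZ* it was *DNASE1L1*, with a mean of 10.8 FPKM. The highest overlapping gene had a mean of 20.1 FPKM for *PTPMT1*, 14.9 FPKM for *CEPT1*, 10.4 FPKM for *PISD*, 8.98 FPKM for *LPCAT3* and 8.53 FPKM for *PLA2G6*. For *PCYT2*, *TAZ*, *CEPT1* and *PLA2G6*, the highest overlapping gene was above the mean of the gene itself, 11.5, 9.92, 6.82 and 2.21 FPKM. *CRLS1* and *PLA2G15* overlapped only genes under 0.2 FPKM. Among pseudogenes named after the 39 genes, only 2 copies of *PLA2G12A* were annotated, and the higher had a mean of 0.307 FPKM.

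In ChIP-seq replicate 1, 3 of the 39 genes had a HIF1α peak at most 1 kb from an annotated start site, or 7.69%. The share was 5.49% of all protein-coding genes and 8.6% of those averaging 1 FPKM or more, so the count was near the background. The 3 genes were *PTDSS1*, *GPD2* and *CRLS1*. They belong to different branches, and none of the Kennedy pathway, the acyltransferases or the phospholipases had such a peak. With 3 genes in the count, nothing was read from the roles with or without a peak. All 3 were expressed, at 37.3, 8.71 and 29.98 FPKM on average.

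The core of the hypoxia response element was searched as ACGTG and GCGTG on both strands, which appear as CACGT and CACGC when read from the other strand. CACGTG holds ACGTG on each strand and counts as 2 overlapping matches. Of 1661 replicate 1 peaks on the assembled chromosomes, 89.3% held a core and 86.1% held one within 100 bp of the peak centre. In replicate 2, 48.8% of 16648 peaks held a core and 26.6% had one that near. A match describes the letters only.

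*GPD2*, which passes electrons from glycerol 3-phosphate to the respiratory chain, had its peak at chr2:157292492-157292864 (GRCh37), ending 27 bp before the canonical start site. The peak lay in no annotated exon, and no other gene starts within 1 kb of it. It held 2 cores, the nearer of them 70 bp from the peak centre and 283 bp before the canonical start. Most of the peak is shown on the plus strand, which is the strand of the gene, at chr2:157292492-157292791, with the cores in capitals, because this was the promoter peak with neither exon bases nor a neighbouring start.
GPD2 peak: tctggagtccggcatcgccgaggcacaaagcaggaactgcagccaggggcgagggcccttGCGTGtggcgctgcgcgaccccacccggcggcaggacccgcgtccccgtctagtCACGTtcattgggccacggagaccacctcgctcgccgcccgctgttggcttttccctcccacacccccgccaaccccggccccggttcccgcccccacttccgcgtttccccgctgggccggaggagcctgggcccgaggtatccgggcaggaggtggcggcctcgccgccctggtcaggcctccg

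*CRLS1* had its peak at chr20:5986641-5986923 (GRCh37), across the start sites, with the centre 13 bp past the canonical start, and 65.4% of its bases in exons of the gene. It held a single core, 126 bp from the centre, in the coding part of the first exon and 139 bp past the canonical start. The core is shown in capitals with 8 bases on either side, on the plus strand, the strand of the gene, at chr20:5986898-5986918, to set it beside those of the *GPD2* peak.
CRLS1 core: agccttgcGCGTGgcgcgcgg
The antisense gene *MCM8-AS1* starts within 1 kb of the same peak and stood at 0.0212 and 0.0389 FPKM.

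*PTDSS1* had its peak at chr8:97273667-97273969 (GRCh37), 161 bp before its only nearby start site. None of its bases lay in exons of *PTDSS1*, but 36.3% lay in exons, since the neighbouring gene *MTERF3* starts inside the peak and runs the other way. The peak held 5 core matches, of which the nearest was 5 bp from the centre. *MTERF3*, which acts in mitochondrial ribosome assembly, stood at 9.31 and 13.6 FPKM, below *PTDSS1*. To which of the 2 genes the peak belongs cannot be told apart by position.

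The peaks of *PTDSS1* and *GPD2* thus had a core near the centre, like most peaks of replicate 1, and that of *CRLS1* did not. A wider window of 3 kb added only *PLA2G6*. That peak, at chr22:38598475-38598741, lay 2956 bp from a start site of *PLA2G6* and within 1 kb of the start of *MAFF*, a gene for a small MAF transcription factor at 8.39 and 8.67 FPKM. For the other 35 genes the nearest replicate 1 peak was over 10 kb from any start site. The median distance over all 39 genes was 191 kb, and 26 genes were over 100 kb away. Such distances are not given here for all genes, so nothing particular to the list was read from them.

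**Figure D4:**
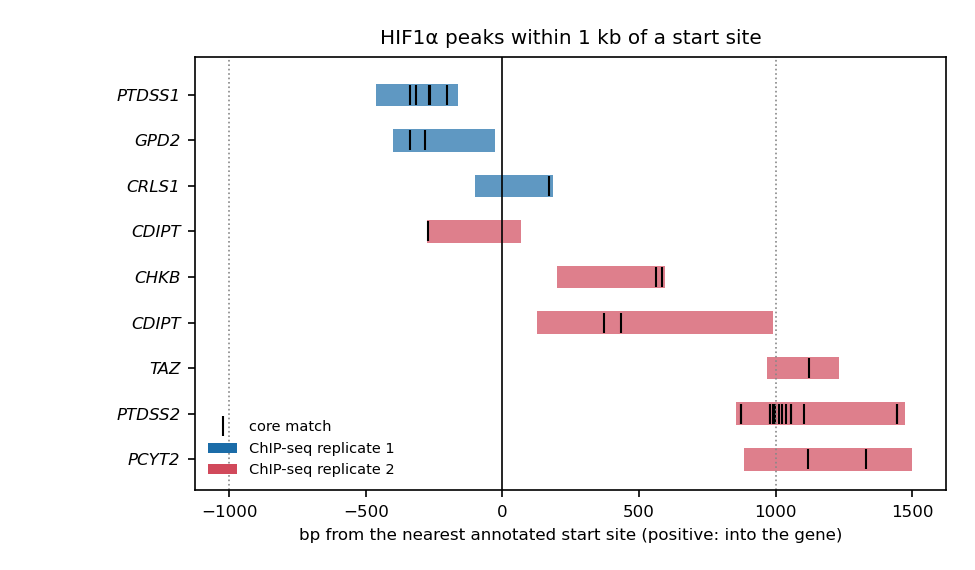
Peaks within 1 kb of an annotated start site, drawn by distance from the nearest start site in bp along the direction of the gene, for ChIP-seq replicate 1 (blue) and replicate 2 (red), with core matches as black ticks and dotted lines at 1 kb. Replicate 1 peaks lie before or across the start, and most replicate 2 peaks lie past it.

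In ChIP-seq replicate 2, 5 of the 39 genes had such a promoter peak, or 12.8%. The share was 14% of all protein-coding genes and 20% of those averaging 1 FPKM or more. The 5 genes were *CDIPT*, *CHKB*, *PCYT2*, *PTDSS2* and *TAZ*. None of the 39 had a promoter peak in both replicates, where the share was 1.79% of protein-coding genes and 2.87% of those expressed.

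These 5 genes differed from the former 3 in where the peaks lay. The 6 peaks had from 99.1% to 100% of their bases in exons. Each of them held a core, as did 48.8% of all replicate 2 peaks. The nearest core lay 21, 59 and 75 bp from the peak centre for *TAZ*, *PTDSS2* and *PCYT2*. For *CHKB* it lay 163 bp away, and for the *CDIPT* peaks 123 and 168 bp. Over all replicate 2 peaks, 26.6% had a core within 100 bp of the centre. *CDIPT* had a peak at chr16:29874143-29874486 (GRCh37) near its canonical start, with the centre 233 bp past it, and another at chr16:29869802-29870663 at the other end of the gene. The *CHKB* peak had its centre 827 bp past the canonical start, near start sites of retained-intron transcripts. The peaks of *PCYT2*, *TAZ* and *PTDSS2* had their centres 6915, 9889 and 40676 bp past the canonical start. They counted as promoter peaks only because a shorter transcript starts 886, 969 and 857 bp away. The *TAZ* peak centre lay 301 bp from the end of the gene, and that of *PTDSS2* 444 bp.

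With only the canonical start of each gene, an alternative chosen after seeing the data, *CDIPT* and *CHKB* remained in replicate 2, and *CRLS1*, *GPD2* and *PTDSS1* in replicate 1. With only peaks under 50% in exons, 0 of the 5 genes remained in replicate 2. In replicate 1 the same limit, also added after seeing the data, kept *GPD2* and *PTDSS1*.

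Along whole genes, replicate 2 had 37 peaks in 23 of the 39 genes, with 96.3% of their bases in the exons of the gene they lay in and 31 overlapping its last exon. Genes with such a peak had a median mean level of 11.9 FPKM, and the 16 without 6.64 FPKM. For peaks anywhere in a gene, no share over all genes is given here, so nothing particular to the list was read from the 23. The peaks inside *PLA2G6*, *PLA2G4A* and *PLD1* had 0 bases in exons of these genes. None of the 10 genes under 5 FPKM had an exon peak, where 10.7% of all protein-coding genes under 1 FPKM and 24.3% of those from 1 to 5 FPKM had one. From 5 to 10 FPKM, 5 of 8 genes had one, against 43.4% of all protein-coding genes. From 10 to 20 FPKM it was 8 of 12 against 58.5%, and from 20 to 50 FPKM 7 of 9 against 69.7%. The share of exon bases in peaks likewise climbed over these 3 levels, from 6.01% to 10.7% and 17.5%. Over all protein-coding genes it was 6.76%, 10.5% and 14.6%, and below 5 FPKM it was 2.54% and 3.73%, against 0% for the genes described here. Exon peaks of replicate 2 thus went with the RNA level of a gene, here as in the whole list. What produced them was not tested.

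**Figure D5:**
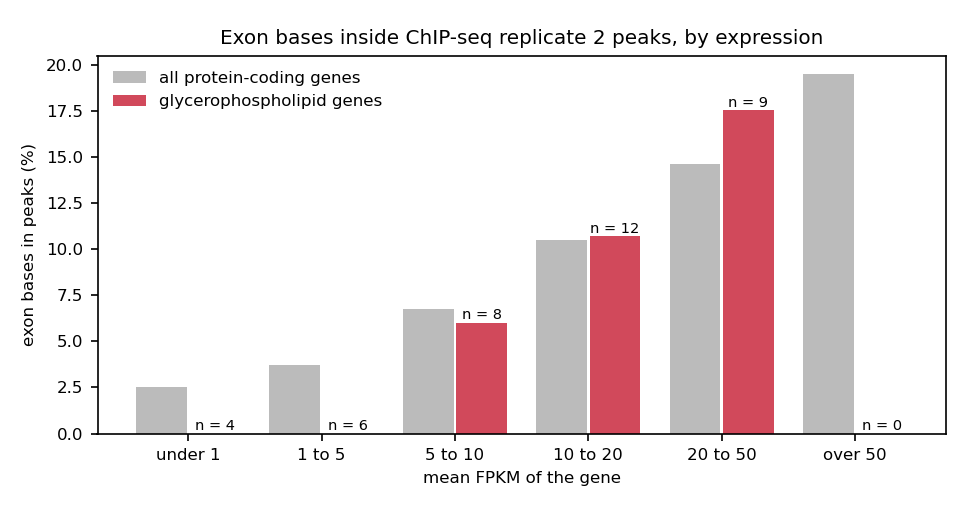
Exon bases inside ChIP-seq replicate 2 peaks (%) by mean FPKM of the gene, for all protein-coding genes (grey) and the glycerophospholipid genes (red, number of genes above the bar). Both climb with expression, and no glycerophospholipid gene had a mean over 50 FPKM.

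Core letters were also counted in RefSeq promoters (GRCh38.p14), over the 250 bases before each start. Of the 39 genes, 32 had an entry, with 42 windows in all, and 17 of these windows held a core, or 40.5%. Over all 35116 windows the share was 43.2%, so the list lay near the background. No window was found under the names *CHKA*, *GPD1*, *LPCAT2*, *MBOAT1*, *PLA2G4C*, *PTDSS1* and *TAZ* in the set used here. This does not show that RefSeq lacks these genes. The cores of the *GPD2* peak lay 283 and 337 bp before its canonical start, beyond the reach of such a window.

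The windows with the most matches were those of *PTDSS2*, with 6, and *PCYT2*, with 5, and 1.36% of all windows held at least 5. Each gene had another window with 0 cores, and for *PTDSS2* that was the window of the canonical start. Neither gene had a replicate 1 peak nearby. The nearest lay 78582 bp from a start of *PTDSS2*, beside *MIR210HG*, and 44247 bp from a start of *PCYT2*, beside *P4HB*. These windows are shown because they hold the letters without a nearby peak in replicate 1. The *PTDSS2* window is chr11:448018-448267 on the plus strand and that of *PCYT2* is chr17:81911400-81911649 on the minus strand, each written in the direction of the gene with the cores in capitals.
PTDSS2 promoter: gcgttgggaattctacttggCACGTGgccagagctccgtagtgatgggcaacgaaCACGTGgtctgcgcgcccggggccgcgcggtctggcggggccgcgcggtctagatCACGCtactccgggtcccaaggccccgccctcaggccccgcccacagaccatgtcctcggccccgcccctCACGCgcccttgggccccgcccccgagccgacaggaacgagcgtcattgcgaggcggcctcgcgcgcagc
PCYT2 promoter: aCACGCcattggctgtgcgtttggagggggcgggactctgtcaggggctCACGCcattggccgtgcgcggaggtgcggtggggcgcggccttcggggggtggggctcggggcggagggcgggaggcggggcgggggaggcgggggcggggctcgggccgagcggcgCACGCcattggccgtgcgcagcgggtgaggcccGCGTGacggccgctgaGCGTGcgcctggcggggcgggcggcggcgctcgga

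Other genes of the pathway, among them the enzymes of the earlier acylation steps, lipins, choline transporters and ether lipid enzymes, were read in the same way. Of 48 such genes with a value, 38 had an FPKM of at least 1 in both libraries, against 58.8% of all protein-coding genes. Medians over the 48 were 10.9 and 12.2 FPKM. Of the 48, 39 averaged 1 FPKM or more. Of those 39, 0 were over 1.5-fold apart, against 3.3% of protein-coding genes averaging 1 FPKM or more. The highest were the lysosomal *PLD3* at 64.6 and 58.8 FPKM, the trifunctional protein subunit *HADHA* at 54.4 FPKM in each library, and the phosphatidylcholine carrier *STARD7* at 47.8 and 50.0 FPKM.

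Of these 48 genes, 6 had a replicate 1 promoter peak, or 12.5%, and 10 a replicate 2 promoter peak, or 20.8%. The shares over all protein-coding genes were 5.49% and 14%, and over those averaging 1 FPKM or more 8.6% and 20%. The 6 were *AGPAT5* at 13.6 and 15.3 FPKM, *SLC44A1* at 13.3 and 14.8 FPKM, *LPIN3* at 15.3 and 12.4 FPKM, *PNPLA8* at 7.28 and 7.84 FPKM, *PLD6* at 4.49 and 4.43 FPKM, and *PLPP3* at 0.933 and 1.05 FPKM. *AGPAT5*, an acyltransferase that makes phosphatidic acid, and *LPIN3*, a phosphatidate phosphatase, had a promoter peak in both replicates. These 2 genes were 4.17% of the 48, against 1.79% of all protein-coding genes, 2.87% of those expressed and 0 of the 39 genes, and the difference was not tested. *SLC44A1* carries choline, and *PLD6* and *PNPLA8* are mitochondrial lipid enzymes.

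For scale, 4 HIF1α target genes of lipid storage and mitophagy are given. *PLIN2* stood at 200.1 and 204 FPKM, *BNIP3* at 279.9 and 297 FPKM, *ANGPTL4* at 144 and 132 FPKM, and *HILPDA* at 50.9 and 56.1 FPKM. All 4 had a promoter peak in replicate 1, and *BNIP3*, *ANGPTL4* and *HILPDA* also in replicate 2. The highest of the 39 genes by summed FPKM, *LPCAT1*, had a mean of 44.6 FPKM and no promoter peak in either replicate.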

How the data were processed

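HIF1α ChIP-seq (2 replicates) and RNA-seq (2 replicates) of treated HK2 cells were grouped by the sample labels, and the 6 h of treatment came from the methods of the study. Reads were aligned by the authors to hg19 with Bowtie2 and peaks called with MACS2 for each replicate. Version, threshold and control library are not given in the sources used here, and the deposited lists hold positions without scores, so the depth behind them is unknown. For RNA, the authors used HISAT2 and StringTie 1.3.3 on GENCODE 27 and deposited coverage, FPKM and TPM for each transcript. These tables are in GRCh38 coordinates although hg19 is named for the study, since 4.48% of genes start within 1000 bp of their GRCh37 start. Expression was therefore joined to peaks by Ensembl identifier, and no position was converted.

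FPKM was summed over transcripts. Differences were taken as log2(FPKM + 1), with a limit of 1.5-fold and a mean FPKM of at least 1. This scale understates differences of low genes. A promoter peak overlapped by at least 1 bp the 1 kb on either side of any GENCODE 44 start site on GRCh37. Positions are 1-based. Python 3.11.15, pandas 2.3.3, numpy 2.4.6, pysam 0.24.0, samtools 1.23.1 and matplotlib 3.10.9 were used. Peak assignment and the limit on differences were checked on simulated data.

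The members, the other pathway genes and the markers were chosen with earlier results of these data known. Some of the listed markers are not reported here. Genes described in full were those with a promoter peak, those over 1.5-fold apart, the 5 highest and those under 1 FPKM; of the other pathway genes, those with a replicate 1 peak and the 3 highest. Nothing in the labels says that replicates came from separate cultures, so their spread may be technical. No test was made, since all samples had the same treatment.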

Additional observations from a re-analysis of the deposited data

How the results depend on the processing

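Of 35 alternatives over 6 results, 22 stayed within the limits set here, 1.5 times for a count and 1 SD between libraries for the median. The count of 35 expressed genes went from 29 at a minimum of 5 FPKM to 35 at 0.5 FPKM, and it was 35 without either library. The median of the 39 genes was 10.6 FPKM, and 29.3 as TPM and 5.33 with only the largest transcript of a gene. Without either library it ranged from 9.79 to 11.6 FPKM. The count of 3 genes over 1.5-fold apart was 3 under all 4 alternatives, although on scaled bases *LPCAT1* took the place of *PCYT2*. The count of 3 genes with a replicate 1 promoter peak was from 2 to 4 under its alternatives. The count of 5 in replicate 2 was 2 at 500 bp, 12 at 3 kb and 22 at 10 kb. It was 1 with only the first start site of a gene, 2 with the peak centre in the window, 0 with peaks under 50% in exons, and 2 with the canonical start only, a choice made after seeing the data. The count of 0 genes in both replicates was 1 at 3 kb, *PLA2G6*, and 3 at 10 kb, and from 3 to 5 when one replicate was left out, which asks for a peak in the other only. The cause of these changes was not tested. No paired analysis was possible because no test was made and all samples had 1 treatment. With 2 libraries and no scores for peaks, levels are known only to the spread given and peaks cannot be ranked.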
